A study of Mus musculus with 27 samples.

Results

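C2C12 myotubes were compared at opposite phases of a 24 h day, which left 12 of the 27 libraries of a time course. The 6 libraries of the 24/48 h group were collected 24 or 48 h after a serum pulse, with 3 at each hour. The 6 libraries of the 36/60 h group were collected 36 or 60 h after it, again with 3 at each. They were chosen by the time point alone, and no measured value entered the choice. The hours 24 and 36 are called the first day, and 48 and 60 h the second. The day was a block in the test, so each library was set against libraries of its own day, and the aim was to find genes that differed in the same direction on both days.

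C2C12 cells are mouse myoblasts that join into multinucleate myotubes when serum is withdrawn. All 12 libraries share 1 treatment: growth in 10% FBS, differentiation with horse serum at 2%, and a pulse of horse serum at 50% that lasted 2 h. Total RNA was depleted of ribosomal RNA and sequenced from stranded libraries. The whole series holds 9 time points, 12 to 60 h in steps of 6 h, and unpulsed cells are not analysed here. The labels do not say whether the 3 libraries of an hour are separate cultures, and the p-values below therefore describe the spread among libraries, part of which may be technical.

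The circadian clock is a feedback loop of transcription. CLOCK and BMAL1, the product of Arntl, bind E-box sequences and switch on the Per and Cry genes, the Nr1d genes that encode the REV-ERB receptors, and the PAR bZIP factors Dbp, Tef and Hlf. PER and CRY proteins then block CLOCK and BMAL1, REV-ERB receptors repress Arntl, and the PAR bZIP factors act on other genes through D-box sequences. In skeletal muscle this clock is known to time genes of fuel use and contraction, and a serum pulse aligns the clocks of cells in culture.

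Depth was 18.7 to 25.2 M counted reads in the 12 libraries (median 21.2 M), and 12506 of 20446 genes had enough reads to be tested. The cells carried the RNA of muscle cells. The 15 myotube markers, among them Ckm, Acta1 and Myog, summed to 20507.9 to 22639.8 CPM (counts scaled to library size) at 24/48 h and to 20820.4 to 22472.6 CPM at 36/60 h, so the groups overlapped. Endothelial markers summed to 1.53 to 2.57 CPM at 24/48 h and 1.5 to 2.11 CPM at 36/60 h, and immune cell markers to 1.71 to 2.87 CPM at 24/48 h and 1.68 to 2.56 CPM at 36/60 h. Fibroblast markers summed to 235 to 314 CPM at 24/48 h and 234 to 287 CPM at 36/60 h, most of it from Ly6a, a surface protein (mean 225 CPM), and Pdgfra, a growth factor receptor (26.4 CPM). Neural markers summed to 137 to 208 CPM at 24/48 h and 156 to 191 CPM at 36/60 h, nearly all from the tubulin Tubb3 (mean 166 CPM). Of the markers in these lists, Cd3e, which defines T cells, Rbfox3, Snap25 and Sox10 of neural cells, and Thy1 and Tcf21 of fibroblasts had no read in any of the 12.

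Promoters of clock genes can carry the sequences through which the loop acts. The promoters of 4 clock genes are shown, 3 from genes with positive differences between the phases (Dbp, Per3, Cry1) and that of Arntl, with a negative one. Each is the 250 bases before the annotated transcript start in RefSeq's GRCm38.p6, read 5′ to 3′ on the strand of the gene. Dbp lies on the plus strand (chr7:45704997-45705246), Per3 on the minus strand (chr4:151044666-151044915), Cry1 on the minus strand (chr10:85185055-85185304) and Arntl on the plus strand (chr7:113207215-113207464). Capitals mark exact matches on either strand to the E-box CACGTG, its variant CACGTT, the D-box TTATGTAA, the nuclear receptor site AGGTCA or the cAMP element TGACGTCA.
Dbp: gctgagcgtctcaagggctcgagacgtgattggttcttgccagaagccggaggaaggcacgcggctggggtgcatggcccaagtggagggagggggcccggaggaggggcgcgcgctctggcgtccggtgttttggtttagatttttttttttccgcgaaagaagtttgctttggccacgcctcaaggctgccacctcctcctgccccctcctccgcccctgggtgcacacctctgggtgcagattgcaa
Per3: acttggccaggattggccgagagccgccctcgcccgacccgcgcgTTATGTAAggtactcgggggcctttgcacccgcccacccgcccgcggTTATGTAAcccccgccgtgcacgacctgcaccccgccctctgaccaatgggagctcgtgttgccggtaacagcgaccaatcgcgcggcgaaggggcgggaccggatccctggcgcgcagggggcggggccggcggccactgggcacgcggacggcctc
Cry1: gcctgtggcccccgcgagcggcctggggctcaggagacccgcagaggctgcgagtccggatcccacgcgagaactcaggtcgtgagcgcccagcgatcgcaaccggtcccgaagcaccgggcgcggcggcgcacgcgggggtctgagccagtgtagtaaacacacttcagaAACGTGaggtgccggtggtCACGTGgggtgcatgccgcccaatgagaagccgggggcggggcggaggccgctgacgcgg
Arntl: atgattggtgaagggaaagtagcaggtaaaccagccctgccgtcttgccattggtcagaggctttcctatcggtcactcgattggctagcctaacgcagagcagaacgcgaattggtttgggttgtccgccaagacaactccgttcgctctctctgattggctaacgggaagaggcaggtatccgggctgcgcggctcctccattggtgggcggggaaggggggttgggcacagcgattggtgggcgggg
The Per3 window holds the D-box in 2 places, 205 to 198 and 158 to 151 bases before the start. The Cry1 window holds CACGTG 60 to 55 bases before the start, and CACGTT on the other strand, read as AACGTG, 79 to 74 bases before it. The windows of Dbp and Arntl hold none of these letter strings, which says nothing about more distant sites. By the gene positions used for the counts, Dbp starts at 45705088 and Cry1, on the minus strand, at 85185064. Both starts lie inside the windows, so the later part of the Dbp window and the last bases of the Cry1 window lie within the gene. Among 32851 such windows of the mouse genome, 6.02% held CACGTG, 3.85% CACGTT, 0.819% TTATGTAA, 14% AGGTCA and 1.55% TGACGTCA.

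The test between the opposite phases called few genes, and those with the smallest p were clock genes and 1 gene of another kind. Dbp and Per2 were higher at 24/48 h (0.016% of genes) and Plat, which encodes tissue plasminogen activator, was lower (0.008%). These 3 were the only genes called among 12506 tested (0.024%, edgeR quasi-likelihood F test, Benjamini-Hochberg adjusted p = 0.0220 for each). An unadjusted p under 0.05 was found for 736 genes, where 625.3 are expected by p alone. DESeq2 called these 3 among 50 genes. With a block for the replicate number, though no label says that numbers pair libraries, edgeR called 64 genes (0.512%). Among them were these 3 and Arntl, Per3, Cry1, Nr1d2, Tef and Per1. Values below are from the fit without that block unless stated. Dbp, Per2 and Plat had the same sign on both days. Their libraries of 24 h did not overlap those of 36 h, nor those of 48 h those of 60 h. Over all genes tested, 51.4% had the same sign on both days.

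Dbp, a transcription factor that the clock switches on directly, stood at 14.0, 15.7 and 15.1 CPM at 24 h and at 11.6, 14.2 and 14.6 CPM at 48 h, against 7.07, 7.67 and 7.83 CPM at 36 h and 9.56, 9.65 and 9.10 CPM at 60 h. Every 24/48 h library was above every 36/60 h library. The means were 14.2 ± 1.43 CPM at 24/48 h and 8.48 ± 1.09 CPM at 36/60 h (SD, n = 6 each), and the fitted log2 difference was 0.75 ± 0.10 (SE). By day it was 0.99 ± 0.11 for 24 h over 36 h and 0.52 ± 0.11 for 48 h over 60 h, and the difference of 0.47 ± 0.15 between the days did not pass (edgeR adjusted p = 0.359). On mm10, Dbp (ENSMUSG00000059824) spans chromosome 7 from 45705088 to 45710203.

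Per2, a repressor of CLOCK and BMAL1, had 15.6, 13.2 and 16.3 CPM at 24 h and 14.4, 13.6 and 17.9 CPM at 48 h, against 6.62, 6.94 and 10.2 CPM at 36 h and 10.1, 8.17 and 8.38 CPM at 60 h. The groups were again fully apart. Its mean was 15.2 ± 1.76 CPM at 24/48 h and 8.40 ± 1.52 CPM at 36/60 h (SD, n = 6 each), with a log2 difference of 0.85 ± 0.12 that was 0.92 ± 0.17 for 24 h over 36 h and 0.79 ± 0.17 for 48 h over 60 h. Per2 (ENSMUSG00000055866) spans chromosome 1 from 91415982 to 91459324.

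Plat went the other way. It had 137, 161 and 136 CPM at 24 h and 138, 168 and 141 CPM at 48 h, against 219, 236 and 200 CPM at 36 h and 208, 221 and 186 CPM at 60 h. No library of 24/48 h reached the lowest of 36/60 h. The means were 147 ± 14.0 CPM at 24/48 h and 211 ± 17.5 CPM at 36/60 h (SD, n = 6 each), a log2 difference of -0.53 ± 0.07, with -0.59 ± 0.10 for 24 h over 36 h and -0.46 ± 0.10 for 48 h over 60 h. Plat encodes a secreted protease that turns plasminogen into plasmin. The gene (ENSMUSG00000031538) spans chromosome 8 from 22757727 to 22782844.

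**Figure D1:**
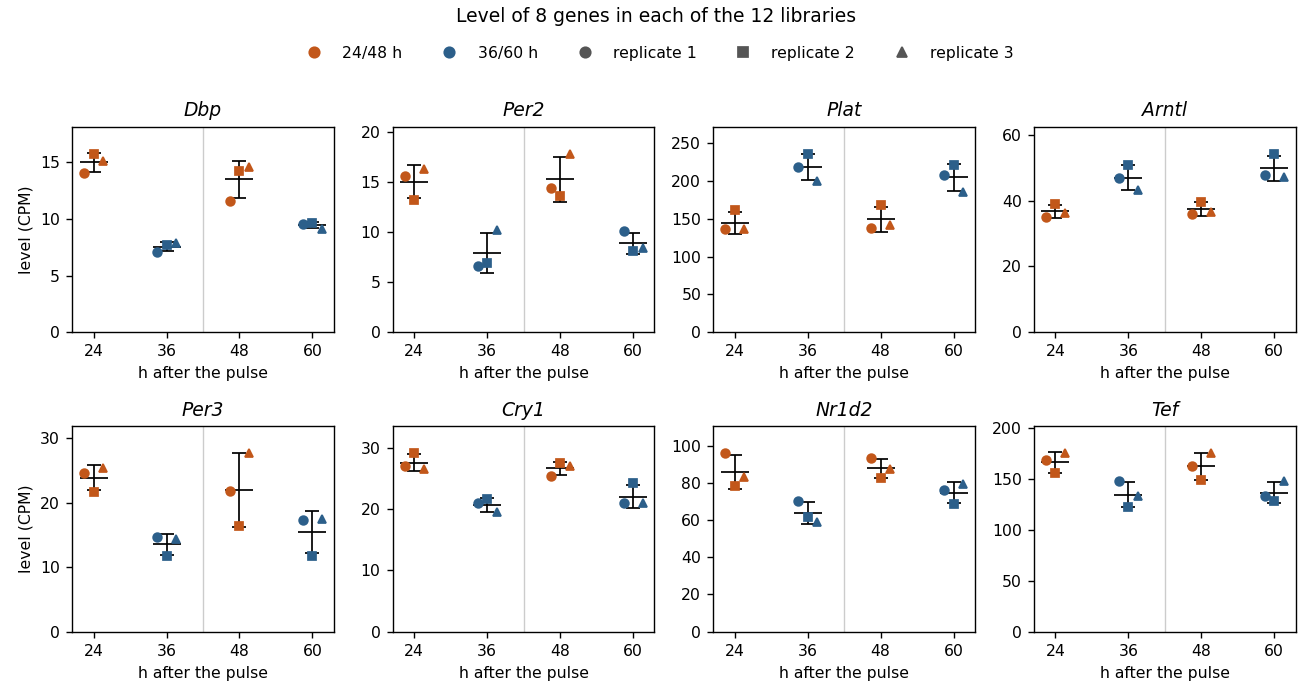
Level in CPM of 8 genes in each library at 24, 36, 48 and 60 h after the pulse; symbols show the replicate number, and bars the mean ± SD of 3 libraries. Dbp and Per2 are high at 24 and 48 h in every library (means 14.2 and 15.2 CPM over both hours), and Plat and Arntl are low there (147 and 37.0 CPM).

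Most single libraries were needed for these calls, though all 3 held without 24 h replicate 2 or 48 h replicate 2. Without any 1 of 24 h replicates 1 and 3, 36 h replicates 1 and 2, 48 h replicate 3 and 60 h replicates 2 and 3, no gene passed (lowest edgeR adjusted p 0.116, 0.0974, 0.1, 0.0926, 0.0657, 0.0568 and 0.0553 in that order). Without 36 h replicate 3 only Per2 passed (Dbp and Plat 0.0550), without 48 h replicate 1 only Dbp (Per2 0.0729, Plat 0.0948), and without 60 h replicate 1 Plat was lost (0.0853). The fitted differences moved little: 0.70 to 0.82 for Dbp, 0.80 to 0.94 for Per2 and -0.58 to -0.49 for Plat.

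The 36 and 60 h libraries were each collected 12 h after their 24 and 48 h partners, so a gene that only climbed or sank with time in culture would also differ between the phases, in the same direction on both days. The change that a straight line from the first day to the second accounts for was therefore subtracted. With this linear drift removed the differences were 0.79 ± 0.11 for Dbp, 0.90 ± 0.13 for Per2 and -0.54 ± 0.08 for Plat, as large as before. Adjusted p was 0.0526 for each, however, and no gene passed (edgeR). An unadjusted p under 0.05 was found for 295 genes, fewer than the 625.3 expected by p alone. With a block for the replicate number as well, a fit added after the data were seen, 799 genes had an unadjusted p under 0.05 (edgeR). In that fit 9 genes passed, among them Dbp, Per2 and Plat.

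The PER and CRY repressors shared a direction. All 5 of them had a positive log2 difference on both days, while 27.6% of all genes tested did. Per2 alone passed between the phases. The median of the 5 was 0.43 between the phases, 0.42 for the first day and 0.46 for the second, beside 0.01, 0.01 and 0.00 over all genes tested.

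Cry1, a partner of the PER proteins in repression, had 27.2, 29.2 and 26.6 CPM at 24 h and 25.5, 27.6 and 27.1 CPM at 48 h, against 21.0, 21.6 and 19.5 CPM at 36 h and 21.0, 24.3 and 21.0 CPM at 60 h. The groups did not overlap, with a narrow gap between 25.5 CPM at 48 h and 24.3 CPM at 60 h. Its log2 difference was 0.35 ± 0.06 and did not pass (edgeR adjusted p = 0.124), although on the first day alone it did (0.42 ± 0.09, adjusted p = 0.0434).

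Per3, whose promoter is shown above with its D-boxes, had 24.6, 21.7 and 25.4 CPM at 24 h and 21.8, 16.4 and 27.7 CPM at 48 h, against 14.6, 11.7 and 14.3 CPM at 36 h and 17.3, 11.8 and 17.5 CPM at 60 h. The second day overlapped through 1 library, 48 h replicate 2. The log2 difference of 0.66 ± 0.13 did not pass (adjusted p = 0.159). Per1, an early responder to serum, had 0.43 (95% interval 0.04 to 0.81, adjusted p = 0.737) and Cry2 0.26 (0.03 to 0.49, adjusted p = 0.712). Their libraries overlapped on both days. Between libraries of the same day and replicate number, Per3 and Per1 were higher at 24/48 h in all 6 pairs. With a block for the replicate number both passed (edgeR adjusted p = 0.00144 and 0.0154).

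Arntl, the activator, was the clock gene with the smallest p in the opposite direction. It had 35.0, 38.8 and 36.3 CPM at 24 h and 35.8, 39.7 and 36.6 CPM at 48 h, against 46.8, 50.8 and 43.2 CPM at 36 h and 47.8, 54.3 and 47.2 CPM at 60 h. Every 24/48 h library lay under every 36/60 h library. The means were 37.0 ± 1.84 CPM at 24/48 h and 48.3 ± 3.77 CPM at 36/60 h (SD, n = 6 each), with log2 differences of -0.35 ± 0.09 for 24 h over 36 h and -0.41 ± 0.09 for 48 h over 60 h. The joint difference of -0.38 ± 0.06 narrowly missed the threshold (edgeR adjusted p = 0.0753).

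The partners of BMAL1 gave no call. Clock had -0.06 (95% interval -0.20 to 0.08), which bounds any difference to under 0.20 on the log2 scale, and Npas2, its relative, had -0.16 (-0.86 to 0.55) at a mean of 1.02 CPM. Arntl2, the relative of Arntl, had a positive value of 0.33 (0.13 to 0.53, adjusted p = 0.4).

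Among the receptors that act on Arntl, Nr1d2 (REV-ERB beta) had 96.4, 78.7 and 83.5 CPM at 24 h and 93.5, 82.8 and 87.9 CPM at 48 h, against 70.4, 62.1 and 59.4 CPM at 36 h and 76.5, 68.8 and 79.9 CPM at 60 h. Within each day the libraries did not overlap, but 60 h replicate 3 was above 24 h replicate 2. The log2 difference was 0.33 ± 0.07 (adjusted p = 0.178). Nr1d1 (REV-ERB alpha) had -0.05 (95% interval -0.60 to 0.51), and the activating ROR receptors Rora and Rorb had -0.03 and 0.20, all with an edgeR adjusted p of 0.999. The 3 other repressors of E-box genes, Bhlhe40, Bhlhe41 and Ciart, had -0.03, 0.22 and -0.05, and none of them passed.

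The PAR bZIP relatives of Dbp had positive values too. Tef had 168, 155 and 175 CPM at 24 h and 163, 149 and 176 CPM at 48 h, against 148, 123 and 133 CPM at 36 h and 134, 129 and 148 CPM at 60 h. Within each day the libraries of the 2 hours did not overlap, and the log2 difference was 0.28 ± 0.06 (adjusted p = 0.196). Hlf had 1.59 ± 0.47 (adjusted p = 0.419) at a mean of only 0.297 CPM, with 1 library of 60 h at 0. Nfil3, the repressor that binds the same D-box, had the opposite sign, -0.18 ± 0.07 (adjusted p = 0.645).

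A looser view asked which genes had no overlap between replicates on either day, in the same direction. There were 120 such genes (0.96%), 42 higher at 24/48 h (0.336%) and 78 lower (0.624%), and 137 genes (1.1%) were apart on both days in opposite directions. Of the 21 clock genes, Per2, Cry1, Nr1d2, Dbp and Tef were among the 42 and Arntl among the 78, and none of the 21 was apart in opposite directions. Of the other lists, the targets of the stress factor ATF4 had 4 of 24 among the 78, namely Ddit3, Atf4, Cth and Vldlr, and collagen and matrix genes 3 of 27, namely Postn, Eln and Col5a2.

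**Figure D2:**
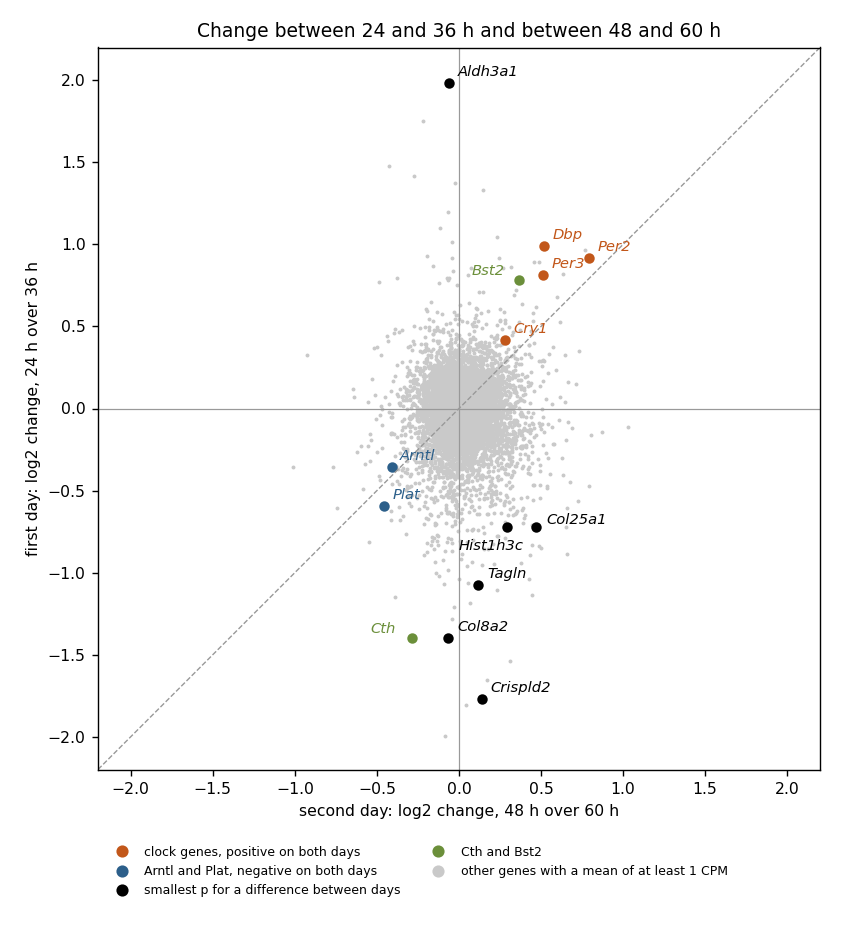
Log2 change of 24 h over 36 h (vertical) against 48 h over 60 h (horizontal) for the 11735 genes that averaged 1 CPM or more; the dashed line marks equal change. Dbp, Per2, Per3 and Cry1 lie in the upper right, Arntl and Plat in the lower left, and Aldh3a1 (1.98 and -0.06) and Crispld2 (-1.77 and 0.14), which differ between the days, lie near the vertical line.

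The genes that came next by p were not called, and their names were chosen after their values were seen. With positive values, apart from clock genes, these were Mymx, Slc1a3, Bst2, Sprr1a, Prl2c3, Psrc1 and Glul (edgeR adjusted p 0.0898 to 0.178). Mymx encodes the fusion peptide of myoblasts, Slc1a3 a glutamate transporter, Bst2 the interferon-induced protein tetherin and Glul glutamine synthetase. With negative values these were Sema7a, Thbs2, Col8a1, Gpr176, Klhdc8a, Cdh11, Ccdc80, Kdelr3, Fbln5 and Fxyd5 (0.0898 to 0.178). Thbs2, Col8a1, Ccdc80 and Fbln5 encode proteins of the extracellular matrix, and Cdh11 a cadherin.

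Most of these genes had a difference that shrank once linear drift was removed. Mymx had 70.3, 63.6 and 68.8 CPM at 24 h and 49.3, 44.2 and 39.8 CPM at 48 h, against 56.0, 50.7 and 58.5 CPM at 36 h and 31.2, 32.0 and 30.4 CPM at 60 h. It was higher at 24 than at 36 h and at 48 than at 60 h, yet lower at 48 than at 36 h, and its log2 difference of 0.40 ± 0.07 became 0.05 ± 0.08. For Col8a1 the difference of -0.30 ± 0.06 became 0.00 ± 0.07, for Fbln5 -0.22 became 0.07, for Prl2c3 0.74 became 0.14 and for Ccdc80 -0.25 became -0.05.

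The clock genes did not shrink in this way. Per3 had 0.66 before and 0.68 after, Cry1 0.35 and 0.36, Nr1d2 0.33 and 0.40, Tef 0.28 and 0.28, and Arntl -0.38 and -0.35. Of the other genes, Kdelr3, a receptor that returns proteins to the endoplasmic reticulum, had -0.30 before and -0.28 after, and Thbs2 -0.29 and -0.24. Kdelr3 had 75.9, 79.6 and 64.6 CPM at 24 h and 77.8, 85.1 and 76.6 CPM at 48 h, against 93.8, 99.3 and 92.2 CPM at 36 h and 98.5, 92.8 and 88.7 CPM at 60 h.

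**Figure D3:**
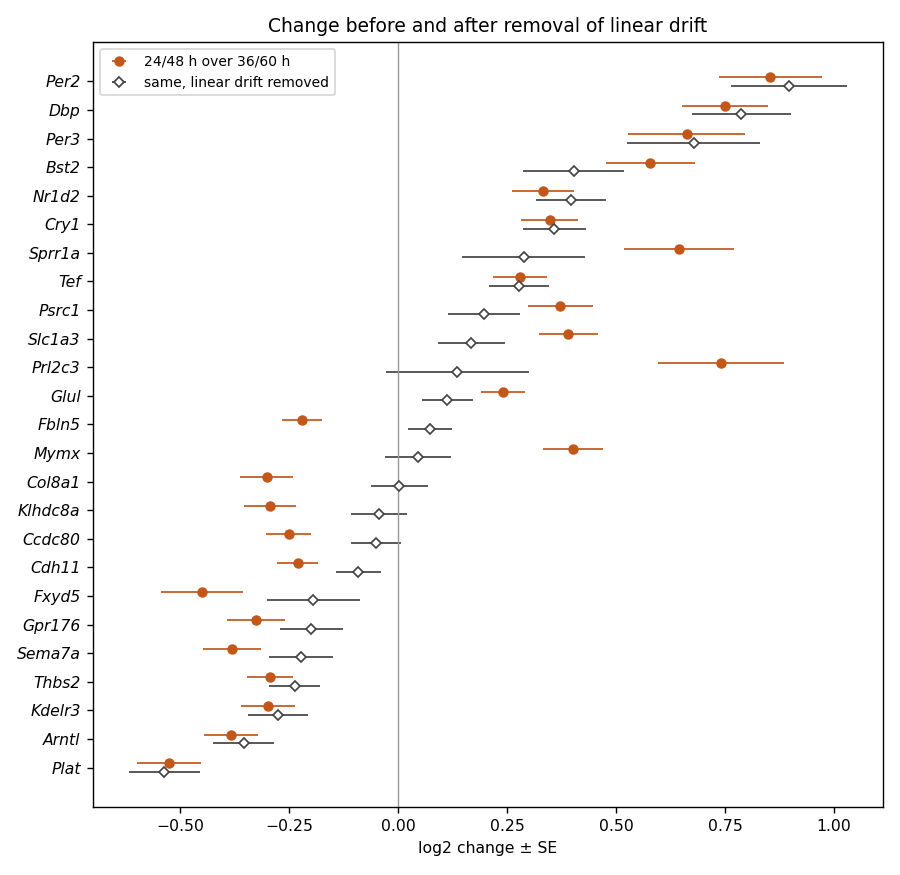
Log2 difference of 24/48 h over 36/60 h with its SE for 25 genes (circles), and the same with linear drift removed (diamonds). Per2, Dbp, Per3, Nr1d2, Cry1, Tef, Arntl and Plat keep their place, while Mymx moves to 0.05 and Col8a1 to 0.00.

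The 15 libraries of 12, 18, 30, 42 and 54 h were not in the comparison and give each gene's level at the hours around it. Some genes alternated between these hours and those compared. Gpr176 had means of 37.5, 42.8 and 38.7 CPM at 30, 42 and 54 h, against 29.4, 27.9 and 32.5 CPM at 36, 48 and 60 h. Whether the sets of hours differ in more than time was not tested. Per2 was highest at 24 h (15.05 ± 1.64 CPM, SD, n = 3) and at 48 h (15.3 ± 2.25 CPM), with 12.5 CPM at 18 h, 10.1 CPM at 30 h, 10.97 CPM at 42 h and 11.3 CPM at 54 h. Plat was highest at 36 h (218 ± 17.7 CPM) and at 60 h (205 ± 17.8 CPM), with 145 CPM at 18 h, 180.0 CPM at 30 h, 185 CPM at 42 h and 179 CPM at 54 h. For these genes the 4 hours of the comparison are close to the extremes. At 12 h, a day before 36 h, Per2 had 8.66 CPM, near its 36 h mean of 7.93 CPM. Plat had 148 ± 20.7 CPM at 12 h, near its means at 24 h (145 CPM) and 48 h (149 CPM) and not near that at 36 h.

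Dbp was already high at 18 h (14.0 ± 1.29 CPM) and 42 h (12.0 ± 0.317 CPM) and lowest at 30 h (6.18 ± 0.366 CPM) and 54 h (6.92 ± 0.229 CPM). Nr1d2 peaked at 18 h on the first cycle (93.3 CPM) and at 42 h on the next (89.7 CPM), the hours at which Arntl was lowest (31.7 and 32.9 CPM). Cry1 was nearly as high at 30 h (27.3 CPM) and 54 h (26.3 CPM) as at 24 h (27.7 CPM) and 48 h (26.7 CPM). For Dbp, Nr1d2 and Arntl a sampled peak or trough thus lay outside the 4 hours compared.

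The same comparison made 6 h earlier, with 18/42 h over 30/54 h in its own 12 libraries, called 2 of 12506 genes (0.016%). These were Dbp with a log2 difference of 0.98 ± 0.09 (edgeR adjusted p = 0.000466) and Nr1d2 with 0.52 ± 0.07 (adjusted p = 0.0119). Arntl had -0.40 ± 0.07 (adjusted p = 0.181), close to its value between 24/48 and 36/60 h. Per2 had 0.13 ± 0.11 and Plat -0.13 ± 0.08, both smaller than between 24/48 and 36/60 h, and Cry1 had -0.19 ± 0.06, the opposite sign. The difference between the earlier and the later comparison was not tested.

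**Figure D4:**
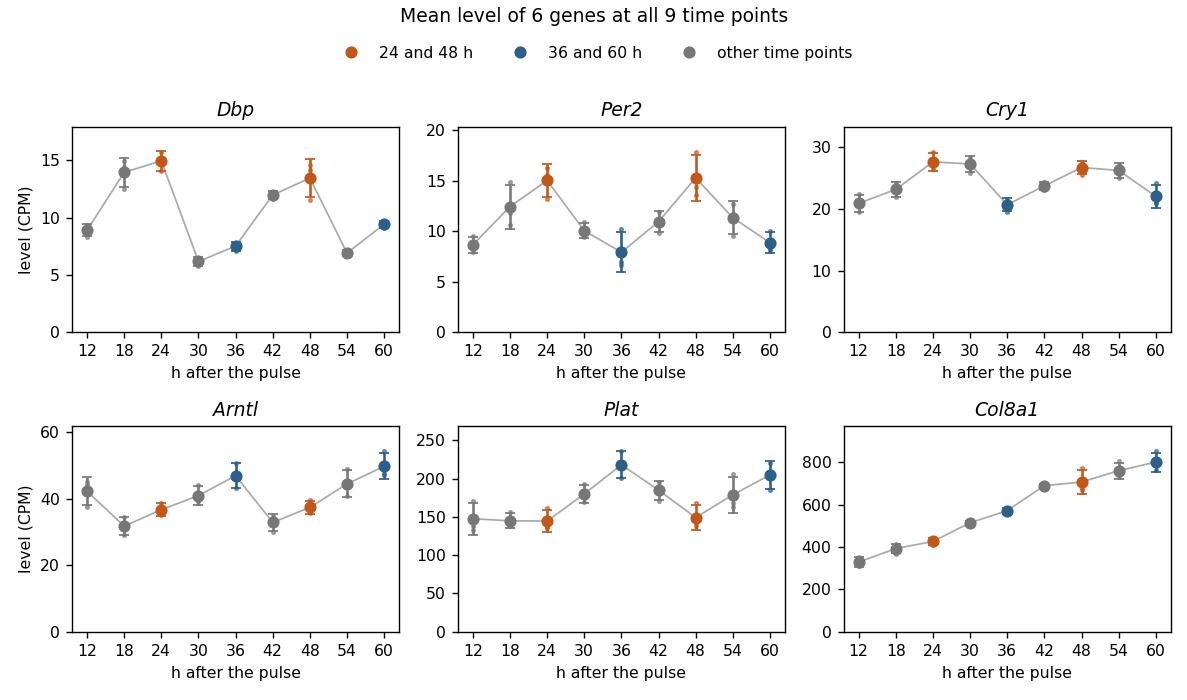
Mean level in CPM ± SD of 6 genes at the 9 time points (3 libraries each, small dots), with the 24/48 h and 36/60 h means in colour. Dbp, Per2, Cry1, Arntl and Plat turn between the days, whereas the mean of Col8a1 climbs at each step, with 426 CPM at 24 h and 801 CPM at 60 h.

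Each day was also tested by itself. For 24 h over 36 h, 140 genes passed (1.12%), 37 higher (0.296%) and 103 lower (0.824%) at 24 h. For 48 h over 60 h, 0 genes passed with edgeR (0%), 0 with limma-voom and 5 with DESeq2. With edgeR 406 had an unadjusted p under 0.05, fewer than the 625.3 expected by p alone. No gene thus passed on both days by itself with edgeR. With a block for the replicate number, 1038 genes had an unadjusted p under 0.05 on the second day. In that fit 10 passed on the second day and 4 on both days. Of the 140, 78 had the same sign on the second day. Fewer genes passed on the first day without 24 h replicate 1 (66), 2 (81) or 3 (76), 36 h replicate 2 (60) or 36 h replicate 3 (73).

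In 19 genes (0.152%) the difference between 24 and 36 h was not the same as that between 48 and 60 h, by the test of the difference itself, and all 19 were among the 140 of the first day. Tagln, which encodes the actin-binding protein transgelin, had 476, 440 and 491 CPM at 24 h and 1054, 1049 and 1024 CPM at 48 h, against 948, 946 and 1069 CPM at 36 h and 952, 982 and 953 CPM at 60 h. The 24 h libraries were far below the other 9, and the second day ran slightly the other way (log2 differences -1.07 ± 0.07 and 0.12 ± 0.07, edgeR adjusted p = 0.000330 for the difference).

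Col8a2, a collagen chain, had log2 differences of -1.40 between 24 and 36 h and -0.06 between 48 and 60 h, Crispld2, a secreted protein, -1.77 and 0.14, and Col25a1, a transmembrane collagen, -0.72 and 0.47. Aldh3a1, an aldehyde dehydrogenase, ran in the opposite direction, with 60.2, 99.2 and 72.2 CPM at 24 h and 16.8, 20.0 and 14.8 CPM at 48 h, against 19.7, 20.7 and 18.2 CPM at 36 h and 17.2, 19.6 and 17.0 CPM at 60 h. Among these 4 hours it was high at 24 h only, and its means were 41.8 CPM at 12 h, 57.7 CPM at 18 h and 48.8 CPM at 30 h. Hist1h3c had -0.72 and 0.29, and as a histone gene with near-identical copies its count is uncertain. Without 1 library the 19 became 12 (24 h replicate 1 or 3, 36 h replicate 2 or 3, or 48 h replicate 1), 31 (36 h replicate 1), 8 (60 h replicate 1) or 9 (60 h replicate 3).

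The gene lists gave few calls between the phases. Among 32 lists only Dbp and Per2 were called, and the 20 known clock outputs of muscle had 0 calls (median 0.02). In that list Tcap, a Z-disc protein, had -0.30 ± 0.11, Lpl, the lipoprotein lipase, -0.25 ± 0.07 and Pik3ip1, an inhibitor of PI3 kinase, 0.28 ± 0.10 (edgeR adjusted p 0.615, 0.408 and 0.620). Of the 13 genes that modify clock proteins, 7 had positive values on both days (all genes 27.6%) and 1 negative values (23.8%), with no call (median 0.04).

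Genes of lipid synthesis differed on the first day. Of 24 cholesterol synthesis genes and their regulators, 11 were lower at 24 than at 36 h and 0 higher, beside 0.824% lower and 0.296% higher over all genes, with a list median of -0.36 beside 0.01 for all genes. On the second day the median was -0.02 and none passed. Lss, lanosterol synthase, had 111, 104 and 105 CPM at 24 h and 131, 129.6 and 135 CPM at 48 h, against 149, 151 and 148 CPM at 36 h and 147, 144 and 133 CPM at 60 h. Among these 4 hours the 24 h libraries were lowest, and the second day overlapped. From 12 to 36 h the means of Lss, Nsdhl, Hmgcs1 and Cyp51 rose at each step, that of Lss from 36.1 to 149 CPM. Of 17 fatty acid synthesis genes 3 were lower at 24 h (all genes 0.824%), Fads2 (-0.57), Elovl6 (-0.36) and Acss2 (-0.61).

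The targets of ATF4, which answers amino acid shortage, had 4 of 24 lower and 1 higher on the first day, beside 0.824% lower and 0.296% higher over all genes. Lower were Atf4 itself (-0.48), Cth (-1.40), Trib3 (-0.92) and Slc7a11 (-0.98), and higher was Fgf21 (1.33). Cth, which makes cysteine from cystathionine, had 6.40, 7.17 and 4.60 CPM at 24 h and 23.2, 24.1 and 18.9 CPM at 48 h, against 15.6, 19.1 and 13.3 CPM at 36 h and 29.4, 27.03 and 24.4 CPM at 60 h. It did not overlap within either day, but with linear drift removed its difference of -0.79 became -0.16, and likewise -0.29 became -0.13 for Atf4 and -0.42 became -0.21 for Ddit3.

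Interferon response genes had 5 of 22 higher on the first day and 0 lower, beside 0.296% higher and 0.824% lower over all genes. These were Bst2 (0.78), Ifit1 (1.48), Ifit3 (1.37), Ifi44 (1.42) and Irf9 (0.40), named here because they passed on that day. The list median was 0.58 for 24 h over 36 h and 0.08 for 48 h over 60 h, and 11 of the 22 had positive values on both days and 0 negative values on both, beside 27.6% and 23.8% of all genes. Bst2 had 7.31, 8.71 and 7.52 CPM at 24 h and 4.83, 5.73 and 5.47 CPM at 48 h, against 4.52, 4.52 and 4.63 CPM at 36 h and 4.11, 4.46 and 3.88 CPM at 60 h. It stood at 19.8 ± 6.83 CPM at 12 h (SD, n = 3), above all later means.

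Some smooth muscle markers and matrix genes also differed on the first day, whereas 0 of the 15 myotube markers passed on that day (median -0.01). Of 7 tested smooth muscle markers 5 were lower at 24 than at 36 h (all genes 0.824%), namely Acta2 (-0.64), Tagln (-1.07), Cnn1 (-1.21), Mcam (-0.74) and Lmod1 (-0.53), and 0 passed on the second day (median 0.07). The 8 markers, all of them with reads and 1 of them, Des, also a myotube marker, summed to 6470.9 to 9122 CPM at 24/48 h and 8291 to 9340.4 CPM at 36/60 h, and their part in the matrix result was not tested. Of 27 collagen and matrix genes 5 were lower (all genes 0.824%), namely Col8a1 (-0.42), Col8a2 (-1.40), Col6a2 (-0.59), Fmod (-1.65) and Timp3 (-0.61). The matrix list had a median of -0.25 for the first day and -0.06 for the second.

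**Figure D5:**
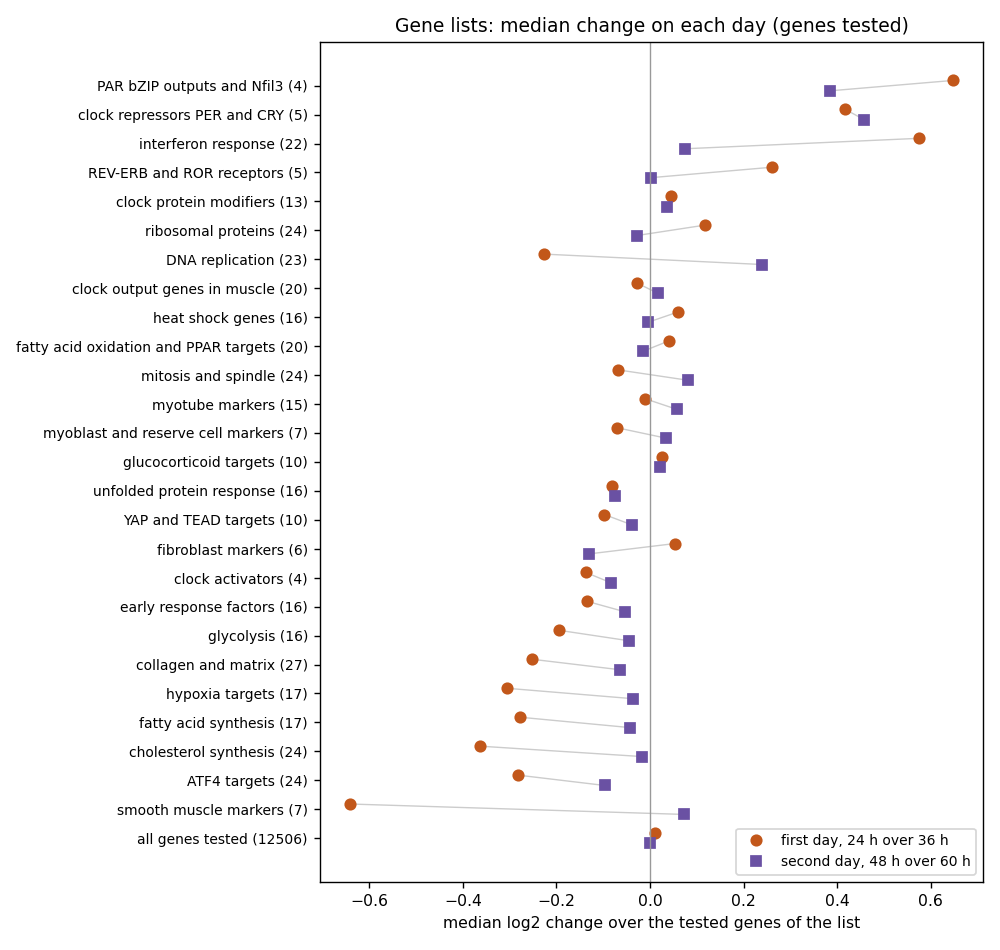
Median log2 change over the tested genes of each list for 24 h over 36 h (circles) and 48 h over 60 h (squares), for lists with at least 4 tested genes. The PER and CRY and the PAR bZIP lists lie to the right on both days. Smooth muscle markers lie at -0.64 and 0.07, cholesterol synthesis at -0.36 and -0.02 and DNA replication at -0.23 and 0.24.

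DNA replication genes had opposite signs on the 2 days. Of 23 genes only 2 had positive and 1 negative values on both days, and the median was -0.23 for the first day and 0.24 for the second. In 8 of the 23 the libraries were apart on both days in opposite directions, against 1.1% of all genes. These were Mcm2, Mcm3 and Mcm5 of the replicative helicase, Cdt1, which loads it, the polymerase subunits Pola1 and Pole, Rrm2, which makes deoxynucleotides, and Ccne1, a cyclin of S phase entry. Mcm2 had 65.0, 65.0 and 70.4 CPM at 24 h and 76.9, 95.9 and 85.1 CPM at 48 h, against 75.4, 86.8 and 80.6 CPM at 36 h and 73.1, 75.9 and 74.2 CPM at 60 h. None of the 23 passed on either day or for the difference between the days (edgeR).

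Other functions gave no call between the phases or on either day. These were the 17 tested hypoxia targets (median -0.19), 16 glycolysis genes (-0.14), 16 genes of the unfolded protein response (-0.05), 16 heat shock genes (0.01), 24 genes of mitosis and the spindle (0.00) and 24 ribosomal protein genes (0.04). Of the hypoxia targets 11 had negative values on both days (all genes 23.8%) and 1 positive values (27.6%), with Vegfa, the vascular growth factor, at -0.30 ± 0.07 (edgeR adjusted p = 0.234). Among 10 glucocorticoid targets Glul was higher on the first day (0.34; all genes 0.296%), and Mt1 and Mt2, the metallothioneins, had -0.38 and -0.48 between the phases (adjusted p 0.408 and 0.584).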

How the data were processed

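The deposited table holds raw counts, that is whole reads for each of 20446 Ensembl genes, for all 27 libraries. The submitters' processing notes name Trim Galore 0.4.0 and cutadapt 1.9.1 for trimming, featureCounts for counting and mm10 as the genome; the aligner is not given in the sources used here. Gene names and positions came from GENCODE M21 and RefSeq (20327 genes named, 119 not). Windows of Tef and Nr1d2 and a second one of Arntl were searched but are not printed. Both Tef windows held CACGTG, the Nr1d2 window held AGGTCA and the second Arntl window held none of the strings. No promoter window was available for Per2 or Plat.

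Libraries were grouped by the hour in their titles, and no replicate pair agreed within sampling noise (chi-square per degree of freedom at least 6.19). Genes passed filterByExpr with a minimum count of 10 in the 12 libraries. Differences were tested with edgeR 4.0.16 (R 4.3.3, quasi-likelihood F test, TMM factors 0.981 to 1.02, day as a block), and each day and their difference in a fit with the 4 time points as groups. Adjusted p means Benjamini-Hochberg over all 12506 genes, with a threshold of 0.05. The biological coefficient of variation was 11.5%. CPM were scaled by TMM over all 27 libraries, except summed marker levels, which used the total counts; they compare libraries within a gene, not genes.

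The genes named were all clock genes tested, up to 12 called genes each way, the 6 with the smallest p between the days and up to 4 of each list. The genes next by p, those counted in a list on 1 day or by overlap, and the replication genes were named after their values were seen, and some genes that these rules cover are not reported here. All genes and lists were chosen with earlier results of these data known. The scripts were tested on simulated data. Alternatives were DESeq2 1.42.0, limma 3.58.1 (voom), other scalings, filters and thresholds, the replicate block, drift terms, all 27 libraries in 1 fit and each library left out; the block together with the linear drift term was added after the data were seen.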

Additional observations from a re-analysis of the deposited data

Results flagged for a closer look

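In 19 genes the log2 change on the first day (24 h over 36 h) differed from that on the second (48 h over 60 h) by a test of the difference (edgeR, adjusted p 0.000330 to 0.0454), and values are given for 18 of them. The first day minus the second was -1.19 for Tagln, -1.33 for Col8a2, -1.91 for Crispld2, -1.19 for Col25a1 and -1.02 for Hist1h3c. It was -0.85 for Gja5, a gap junction protein, -0.90 for Mgll, a lipase of monoglycerides, -0.82 for Mcam and -1.18 for Cnn1. It was -0.66 for Scml4, -0.93 for Actg2, a smooth muscle actin, -0.65 for Bcat1, -0.79 for Ccn1 and -0.67 for Kntc1. Positive values were 2.05 for Aldh3a1, 1.02 for Gstm1, 1.98 for Avil and 1.26 for Xdh. The 19 were looked at because the test between the days called them, and those that the rule for named genes does not cover were named after their values were seen.

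Cnn1, which encodes calponin of smooth muscle, had 27.4, 27.2 and 22.4 CPM at 24 h and 43.8, 57.2 and 46.0 CPM at 48 h, against 53.3, 63.8 and 60.5 CPM at 36 h and 48.7, 56.4 and 45.0 CPM at 60 h, so the 24 h libraries were lowest and the second day overlapped. No library stood apart from the other 5 of its phase in any of 76 groups of 6 examined with Dixon's test at 95%. These groups came from clock genes and from genes with the smallest p between the phases, a choice that favours a small spread. Cnn1 and the other genes that differed between the days were not among them.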

How the results depend on the processing

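With limma-voom, with DESeq2's size factors in edgeR, without a filter and with a filter at a mean of 1 CPM, all counts stayed within 1.5 times, and Dbp, Per2 and Plat remained the 3 called. With DESeq2, 50 genes passed between the phases, all 50 with the same sign on both days, 1 on both days by itself, 266 on the first day, 5 on the second and 135 between the days. With all 27 libraries in the fit these were 115, 96 with the same sign, 236 on the first day and 98 between the days. At an adjusted p under 0.01 they were 0, 0, 57 and 9, and 120 genes were apart in the same direction on both days by overlap alone. Leaving out each library gave 0 to 4 genes between the phases, as many with the same sign, 60 to 169 on the first day and 8 to 31 between the days. With linear drift removed 0 genes passed. With drift removed to the second order 1 passed, Dbp (edgeR adjusted p = 0.00787), while Per2 and Plat had an adjusted p of 0.103. Both settings give the 4 time points the same weights. They differ in the fit, the linear one with the day as a block and the other with the time points as separate groups.

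Libraries of 1 replicate number deviated together in 15 of 18 pairs of time points (correlation above 0.1, lowest -0.05, median 0.42), and 10 of 12 libraries correlated best with their own number. Since this did not hold in every pair and no label says that numbers pair libraries, the main test had no replicate block. With the replicate block 64 genes passed between the phases, all with the same sign, 4 on both days by itself, 660 on the first day, 10 on the second and 346 between the days. Among the 64 were Dbp (0.00133), Per2 (0.000658), Plat (2.13e-05), Arntl (0.000703), Per3 (0.00144), Cry1, Nr1d2 and Tef (0.00660 each) and Per1 (0.0154). With the block and linear drift removed 9 passed, among them all of these but Per1 (0.147). Without the 4 libraries numbered 2 these were 1 between the phases, Plat, with the same sign on both days, 53 on the first day and 4 between the days, and Dbp (0.139) and Per2 (0.0730) were lost.

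Among the genes refitted under every setting, signs turned only in some that edgeR did not call between the phases in the 12 libraries. Without the 4 libraries numbered 2, Npas2 had 0.0145, Nr1d1 0.0884, Rora 0.0356 and Bhlhe40 0.0240. With linear drift removed, to the second order, and with the block as well, Bhlhe40 had 0.147, 0.147 and 0.148, Col8a1 0.0030, 0.0028 and 0.0015, Timp3 0.0485, 0.0481 and 0.0454, Myog -0.0268, -0.0269 and -0.0290, and Fbln5 0.0731, 0.0728 and 0.0737. These drift settings give the time points the same weights and differ in the fit, so their values had to be close and are not separate checks. With 1 library left out, Npas2 ranged over -0.304 to 0.0570, Nr1d1 over -0.186 to 0.103, Rora over -0.0934 to 0.0651, Bhlhe40 over -0.0815 to 0.0695 and Ciart over -0.135 to 0.0725. Of genes named only by the test between the days or by overlap, with linear drift removed Scml4 turned to 0.0522 and Mcm2, Mcm3, Mcm5, Cdt1 and Pola1 to 0.0227 to 0.0688.

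The first principal component (31.6% of the variance) followed the replicate number (share 0.913), and the second (19.8%) the time point (0.969).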
